A study of Mus musculus with 6 samples.

Results

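The genes described here are the 3 PGC-1 coactivators (Ppargc1a, Ppargc1b and Pprc1), the 3 oestrogen-related receptors (Esrra, Esrrb and Esrrg) and Perm1, chosen by gene name and not by a limit on their values. All 7 had a row among the 51911 genes of the count table. The samples were gastrocnemius muscle of male mice, 3 libraries labelled HSA-PGC-1a3 transgenic and 3 labelled Wild-type. The transgene places PGC-1alpha3, an isoform made from Ppargc1a, under the HSA (human skeletal actin) promoter, which drives expression in skeletal muscle. Strain, age, founder line and the number of animals behind a library are not given in the sources used here, so p-values measure the spread between these libraries.

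PGC-1 coactivators do not bind DNA themselves. They dock on transcription factors, among them the oestrogen-related receptors (ERRs), orphan nuclear receptors that occupy a short DNA element without a known natural ligand, and together they raise transcription of genes for respiration and fat oxidation. In muscle, PGC-1alpha is known to raise Esrra itself and Perm1, a muscle protein that in turn acts on the same programme, and Ppargc1a is also transcribed from an alternative promoter whose spliced products include PGC-1alpha2, PGC-1alpha3 and PGC-1alpha4. The series asked how the muscle transcriptome differs when the alpha3 isoform is overexpressed.

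Libraries held 25532146 to 40846872 counts. TMM factors, which correct library sizes for differences in makeup between libraries, were 1.15 in the transgenic libraries and 0.851 to 0.885 in the wild-type libraries. With library totals alone the log2 fold change of the median gene moved from -0.016 to 0.38, a shift of 0.40. These scalings differ by a single factor per library, so every gene moves by about that amount. A distance from the median gene is thus nearly the same under both by construction. Values below are CPM, counts divided by the TMM-scaled library size and brought to the usual CPM scale, and each fold change is transgenic over wild type. Of 16593 genes tested with edgeR, 8419 (50.7%) passed an adjusted p of 0.05, 4230 higher and 4189 lower. Library totals alone called 61% of genes, 8676 (52.3%) as higher and 1448 (8.73%) as lower. Transcripts of the muscle fibre itself moved with genotype: all 5 fibre markers (Acta1, Ckm, Ttn, Mybpc2 and Des) fell, their summed level being 38489 to 39534 CPM in transgenic and 74933 to 80546 CPM in wild-type libraries; with library totals alone 3 of the 5 passed as lower. All 6 endothelial markers fell as well, with sums of 285 to 306 CPM against 359 to 383 CPM, but with library totals alone none did and their median fold change was 0.031. Satellite-cell markers went the other way, with sums of 12.2 to 15.6 CPM in transgenic and 10.3 to 11.8 CPM in wild-type libraries. Of these 4 markers, 2 (Pax7 and Myf5) rose and 2 did not pass, and 3 passed as higher with library totals alone. No marker of any list was at 0 in every library. In bulk tissue, fewer cells of a type and less RNA per cell cannot be told apart, and the part of these shifts in the results below was not tested.

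Esrra and Perm1, both known to be raised by PGC-1alpha, were lower in the muscle that overexpressed the alpha3 isoform, while Esrrb, Esrrg and Pprc1 were modestly higher. Ppargc1b did not pass the test. Of the 7 genes, 6 passed, 4 higher (Ppargc1a included) and 2 lower, where 25.5% of all tested genes passed as higher and 25.2% as lower. The same 6 genes had no overlap in CPM between genotypes, a property of 59.6% of all tested genes, 30.1% higher and 29.5% lower. With library totals alone all 7 passed, 5 higher and 2 lower. With such a background the number of these genes that passed says little by itself, and the account below turns on each gene's direction and size.

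**Figure D1:**
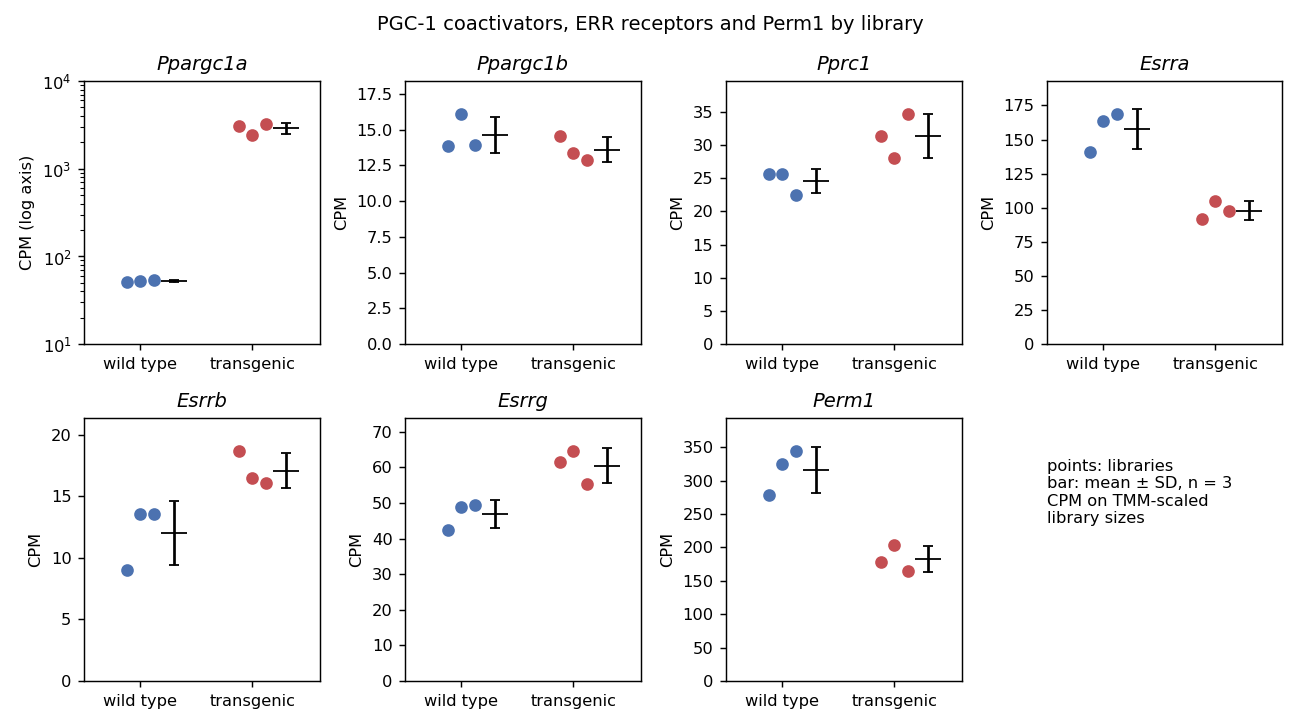
CPM of each of the 7 genes in the 3 wild-type and 3 transgenic libraries (points), with mean ± SD (n = 3); the axis of Ppargc1a is logarithmic and the others start at 0. Esrra and Perm1 lie lower in every transgenic library than in any wild-type library, Pprc1, Esrrb and Esrrg lie higher, and Ppargc1b overlaps.

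Ppargc1a (ENSMUSG00000029167; chromosome 5, 51454250 to 51567726, GRCm38, minus strand), the gene the transgene is made from, stood at 51.1, 52.1 and 53.5 CPM in the wild-type libraries and at 3103, 2449 and 3238 CPM in transgenic replicates 1, 2 and 3. The wild-type libraries differed little among themselves (SD 1.2 CPM), while the transgenic libraries spread more widely (SD 422 CPM), with replicate 2 lowest. Ppargc1a was 56.1-fold higher (log2 fold change 5.81, standard error, SE, 0.12, edgeR adjusted p = 3.14e-09), and 0.0482% of tested genes had a larger one. Gene-level counts pool the transgene, the endogenous gene and all isoforms. The annotation places 4 further genes inside Ppargc1a introns that share no exon with it, and their rows offer a look at signal outside the counted exons. Their summed counts were 4, 9 and 22 in transgenic replicates 1 to 3, and wild-type replicates had 2, 5 and 6. That is 35 against 13 in all, a ratio of 2.92 per total count (95% exact interval 1.51 to 6.01, counting error only), with 22 of the 35 counts from transgenic replicate 3. This ratio divides by library totals, under which the median gene had a log2 fold change of 0.38, and not by TMM-scaled sizes. The rows carry too few counts to say more of the endogenous locus.

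Ppargc1b (ENSMUSG00000033871; chromosome 18, 61298136 to 61400431, minus strand) encodes PGC-1beta, which shares the ERR-docking function of PGC-1alpha and sustains basal respiration genes. Transgenic libraries had 14.6, 13.4 and 12.9 CPM, wild-type libraries 13.8, 16.1 and 13.9 CPM, and the genotypes overlapped. The log2 fold change of -0.11 (SE 0.09) did not pass (edgeR adjusted p = 0.342), with a 95% interval of -0.31 to 0.092. Library totals alone turned the sign to 0.29 (edgeR adjusted p = 0.0129), where the median gene also moved up. Relative to the median gene Ppargc1b was at -0.09 under both scalings, an agreement that the shared shift gives by construction. Ppargc1b thus had no direction that held under both scalings.

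Pprc1 (ENSMUSG00000055491; chromosome 19, 46044886 to 46072915, plus strand), the PGC-1-related coactivator linked to growth signals and NRF1, had 31.4, 28.0 and 34.7 CPM in the transgenic libraries, against 25.6, 25.7 and 22.4 CPM in the wild type. Every transgenic value lay above every wild-type value, with a gap of 2.33 CPM between the groups. It rose 1.28-fold (log2 fold change 0.35, SE 0.09, edgeR adjusted p = 0.00662). With both libraries numbered 3 removed it no longer passed (0.23, adjusted p = 0.0726), and with library totals alone it was 0.75. Pprc1 shares 177 exonic bases, 2.82% of its exons, with Ldb1, and the counting assigned a fragment to every gene it touched.

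Per length, Ppargc1a stood highest of the coactivators in wild-type muscle, and Pprc1 and Ppargc1b stood close together. Ppargc1a was at 7.92 ± 0.182, Pprc1 at 3.91 ± 0.294 and Ppargc1b at 3.66 ± 0.320 CPM per kb of annotated exon (SD, n = 3), and the ranges of Pprc1 and Ppargc1b overlapped. Ppargc1a made up 50.7%, 49.3% and 53.5% of the summed coactivator level in the wild-type libraries and 98.2%, 97.9% and 98.3% in the transgenic libraries. Ppargc1b held 22.7% to 25.2% and Pprc1 23.5% to 26.6% of the sum in wild-type libraries, and each held between 0.645% and 1.17% in transgenic libraries, where the sum itself was 453 ± 64.5 against 15.5 ± 0.460 CPM per kb. The transgene transcript may differ in length from the annotated exons, so its level per length is approximate. The log2 ratio of Pprc1 to Ppargc1b, which no scaling between libraries touches, was 0.23, 0.017 and 0.029 in the wild type, and 0.45, 0.41 and 0.78 with the transgene. The groups did not overlap, and the difference of the means was 0.45.

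Such within-library shares and ratios, and the family sums under TMM scaling, were compared by exact two-sided permutation of the 6 libraries. Of 14 quantities, 13 gave an exact permutation p of 0.1 (0.108 after Benjamini-Hochberg adjustment over the 14), the smallest that 3 against 3 libraries allow, so none can pass 0.05. Nor are the 13 separate shifts, since shares within a family depend on each other and the coactivator shares and sum include the transgene. The 13 also include the TMM-scaled ERR sum, which overlapped between genotypes with library totals alone. The quantities are given as values with their spread.

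Esrra (ENSMUSG00000024955; chromosome 19, 6910977 to 6921813, minus strand) encodes ERRalpha, the main ERR of the respiratory programme. Its level was 141, 164 and 169 CPM in the wild type and 91.5, 105 and 97.8 CPM in the transgenic libraries. The highest transgenic library lay 36.1 CPM below the lowest wild-type library. Esrra fell 1.61-fold (log2 fold change -0.69, SE 0.08, edgeR adjusted p = 2.95e-05), and 10.9% of tested genes had a fold change as low or lower. The fall was -0.29 (adjusted p = 0.00518) with library totals alone, where 8.73% of genes passed as lower. Relative to the median gene it was -0.67 under either scaling, again by construction. Esrra shares 73 exonic bases with Trmt112 and 91 with Mir6990, together a small part of its 4387 exonic bases.

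Perm1 (ENSMUSG00000078486; chromosome 4, 156215868 to 156221307, plus strand), the PGC-1 and ERR induced regulator in muscle, had 279, 325 and 345 CPM in the wild type and 179, 204 and 165 CPM in the transgenic libraries. The groups were 74.7 CPM apart at their nearest. Perm1 fell 1.73-fold (log2 fold change -0.79, SE 0.10, edgeR adjusted p = 1.21e-04), with 8.32% of tested genes as low or lower, and by 0.40 on the log2 scale (adjusted p = 0.00577) with library totals alone. Its exons share no base with another gene. The log2 ratio of Perm1 to Esrra per length was 1.17 ± 0.026 in the wild type and 1.06 ± 0.12 in the transgenic libraries (SD, n = 3), a difference of -0.11. Transgenic replicate 3, at 0.92, lay apart from transgenic replicates 1 and 2, at 1.14 and 1.13.

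In the authors' deposited table, which lists no log2 fold change smaller than 0.585 in size, Perm1 was at -0.80 (adjusted p = 2.46e-16), Esrra at -0.72 (adjusted p = 3.86e-15) and Ppargc1a at 5.65. The other 4 genes were not among its 3614 rows. Here their log2 fold changes under TMM scaling all lay below that limit in size.

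Because Esrra and Perm1 fell together, the 250 bases before their RefSeq starts (GRCm38.p6) are shown, 5′ to 3′, with matches to the searched motifs in capitals.
Esrra (chr19:6921809-6922058, minus strand): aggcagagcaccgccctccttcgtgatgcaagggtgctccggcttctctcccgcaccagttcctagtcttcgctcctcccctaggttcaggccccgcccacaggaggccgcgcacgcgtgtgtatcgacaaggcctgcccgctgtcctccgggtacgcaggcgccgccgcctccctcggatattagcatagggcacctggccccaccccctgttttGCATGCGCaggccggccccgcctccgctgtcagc
Perm1 (chr4:156215677-156215926, plus strand): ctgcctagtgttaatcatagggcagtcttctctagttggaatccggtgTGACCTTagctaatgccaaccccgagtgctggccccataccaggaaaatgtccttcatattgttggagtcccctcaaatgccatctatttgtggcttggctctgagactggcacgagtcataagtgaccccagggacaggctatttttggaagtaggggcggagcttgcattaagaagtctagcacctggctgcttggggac
The Perm1 capitals are the ERR core AAGGTCA on the reverse strand, 202 bases before the start, a motif that 4.08% of all 32851 promoter windows of this length hold on either strand. The Esrra capitals are the NRF1 core GCATGCGC, 34 bases before the start, held by 2.26% of windows. The full ERR element TNAAGGTCA, which contains the core and which 1.14% of windows hold, was in none of the 10 windows of the 6 genes that have one. A match describes the letters only.

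Esrrg (ENSMUSG00000026610; chromosome 1, 187608791 to 188214885, plus strand) encodes ERRgamma, which is known from oxidative and slow muscle. The transgenic libraries had 61.6, 64.7 and 55.3 CPM and the wild-type libraries 42.3, 48.8 and 49.5 CPM. Every transgenic library was higher, the nearest pair being 5.77 CPM apart. Esrrg rose 1.29-fold (log2 fold change 0.37, SE 0.08, edgeR adjusted p = 0.00244), and 0.76 with library totals alone. The call held in all 20 other settings tried, with values from 0.29 to 0.76.

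Slow-fibre transcripts varied within genotypes. The 7 slow-fibre markers summed to 1442, 2818 and 1233 CPM in the transgenic and 877, 1927 and 735 CPM in the wild-type libraries, with replicate 2 highest in both and the genotypes overlapping. With edgeR 0 of the 7 passed (0 also at an unadjusted p under 0.05), with DESeq2 1 and with limma-voom 2. With library totals alone 1 passed, as higher, where 52.3% of all genes did. The list's median log2 fold change was 0.83 with TMM and 1.24 with library totals. Myh7, the slow myosin, had a log2 fold change of 0.89 with an SE of 0.83 (edgeR adjusted p = 0.439). The other 6 ran from -1.26 for the myosin light chain gene Myl3 and -0.021 for Myl2 to 1.16 for the calcium pump gene Atp2a2. Fast-fibre markers moved with genotype: of 8, 6 fell and 1 rose, also with library totals alone, and their sums were 72974 to 74199 CPM in the transgenic against 136737 to 146224 CPM in the wild-type libraries. Myh4, the IIb myosin, fell (-1.30, SE 0.092, edgeR adjusted p = 1.37e-06) and Myh1, the IIx myosin, rose (1.07, SE 0.29, adjusted p = 0.0349), both named after their values were seen. The part of these fibre markers in the Esrrg value was not tested. For Esrrg, transgenic replicate 2 was the highest of its group and wild-type replicate 2 was not. The gene passed with both libraries numbered 2 removed (0.35, edgeR adjusted p = 0.0200). In the libraries then left, the slow-fibre sums were 1442 and 1233 CPM in transgenic against 877 and 735 CPM in wild type. These sums did not overlap between genotypes either, so that removal is no test of the part of slow-fibre transcripts.

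Esrrb (ENSMUSG00000021255; chromosome 12, 86361117 to 86521628, plus strand), best known from pluripotent stem cells and the inner ear, had the lowest mean level per length of the 7 in both genotypes. Its CPM values were 18.7, 16.5 and 16.1 with the transgene and 9.01, 13.5 and 13.5 without it. Wild-type replicate 1 was well below the other wild-type libraries, though the genotypes did not overlap with or without it. That library also had the highest sum of adipocyte markers, 155 CPM against 8.46 to 39.9 CPM in the other libraries, and their part in the Esrrb value was not tested. Esrrb rose 1.41-fold (log2 fold change 0.50, SE 0.15, edgeR adjusted p = 0.0192). The value was 0.33 without wild-type replicate 1 (adjusted p = 0.0194), and the gene no longer passed when transgenic replicate 1 was removed too (0.27, adjusted p = 0.0549). With library totals alone it was 0.90.

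**Figure D2:**
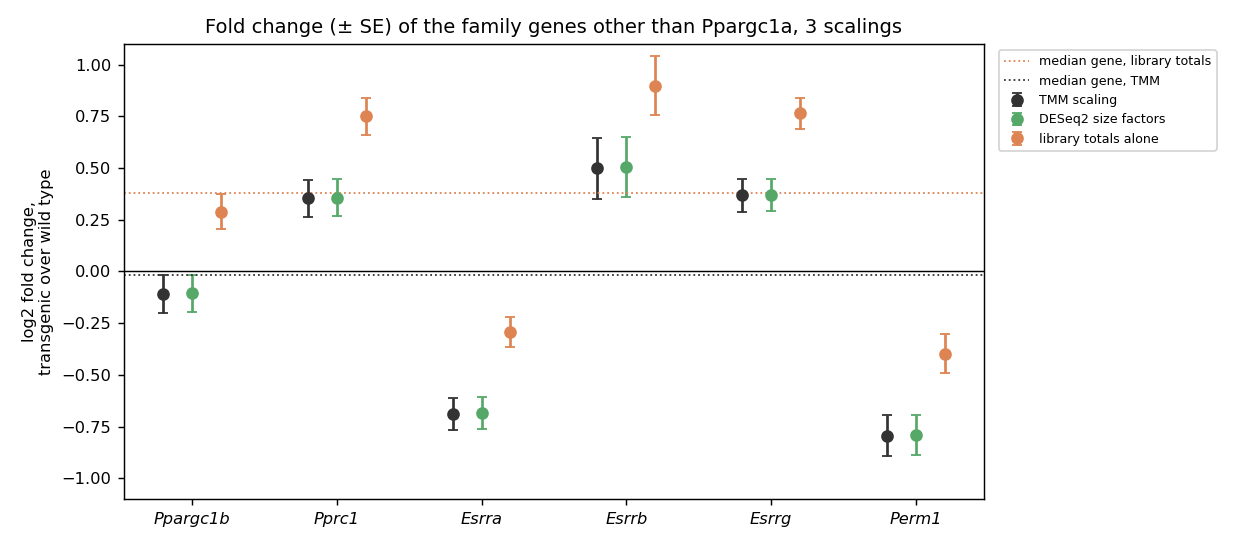
Log2 fold change ± SE of the 6 genes other than Ppargc1a with TMM factors, DESeq2 size factors and library totals alone; dotted lines mark the median gene under TMM (-0.016) and library totals (0.38). Esrra and Perm1 stay below 0 and Pprc1, Esrrb and Esrrg above 0 under each of the 3 scalings, while Ppargc1b changes sign.

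For the receptors that rose, the matching stretches before the first RefSeq start of each are shown in the same way.
Esrrb (chr12:86360867-86361116, plus strand): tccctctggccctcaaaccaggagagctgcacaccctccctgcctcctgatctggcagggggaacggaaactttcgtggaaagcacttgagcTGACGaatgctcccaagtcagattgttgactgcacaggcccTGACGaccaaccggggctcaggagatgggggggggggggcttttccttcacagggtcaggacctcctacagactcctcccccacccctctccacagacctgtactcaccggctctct
Esrrg (chr1:187608756-187609005, plus strand): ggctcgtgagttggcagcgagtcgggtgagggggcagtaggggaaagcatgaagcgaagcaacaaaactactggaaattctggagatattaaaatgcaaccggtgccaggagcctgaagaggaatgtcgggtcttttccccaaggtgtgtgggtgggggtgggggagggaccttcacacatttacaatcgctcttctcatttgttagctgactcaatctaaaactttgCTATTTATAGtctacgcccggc
In Esrrb the capitals are 2 copies of the cAMP response core TGACG, 158 and 117 bases before the start, a short motif in 17.8% of windows. In Esrrg they are a match to the MEF2 consensus, 22 bases before the start, found in 2.92% of windows. Neither stretch held the ERR core, and RefSeq lists 1 further start for Esrrb and 3 further starts for Esrrg whose windows held none of the 8 motifs searched (the others being CCGGAAGT of ETS factors in 2.88% of windows, the E-box CACGTG in 6.02% and the full cAMP element TGACGTCA in 1.55%). The Ppargc1a window held the cAMP core at 49 bases before the start, on the reverse strand.

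The makeup of the ERR family differed between genotypes, with a smaller share of Esrra and larger shares of Esrrg and Esrrb in transgenic muscle. Per length, Esrra made up 79.5%, 78.7% and 79.0% of the summed ERR level in the wild-type libraries and 61.6%, 64.5% and 65.8% in the transgenic libraries. Esrrg made up 16.6% ± 0.240 against 27.9% ± 1.51 and Esrrb 4.33% ± 0.563 against 8.12% ± 0.918 of the sum (SD, n = 3, wild type first, exact permutation p = 0.1 each). None of the 3 shares overlapped between genotypes. The transgenic libraries varied more among themselves than the wild-type libraries.

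**Figure D3:**
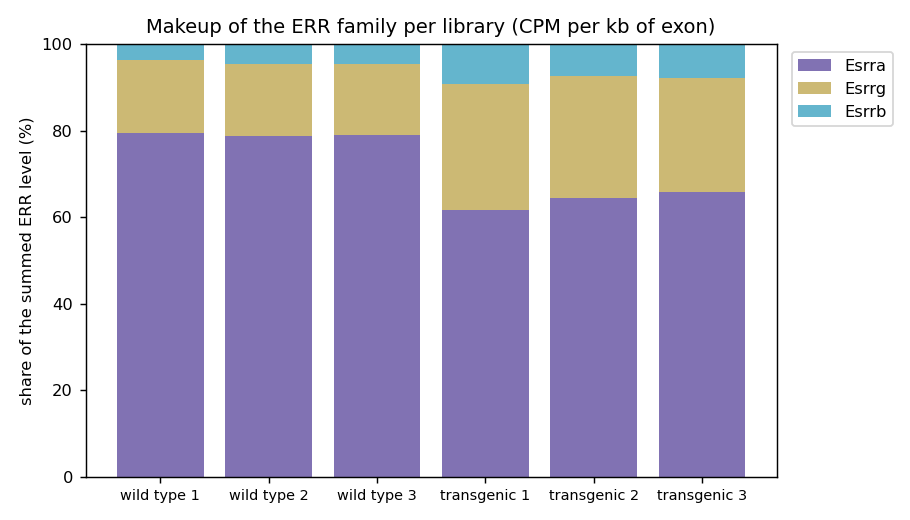
Share of Esrra, Esrrg and Esrrb in the summed ERR level of each library (CPM per kb of annotated exon, percent). Esrra holds 78.7% to 79.5% in the wild-type and 61.6% to 65.8% in the transgenic libraries.

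The log2 ratio of Esrrg to Esrra per length was -2.24, -2.25 and -2.27 in wild-type and -1.07, -1.20 and -1.32 in transgenic libraries, a difference of 1.05 or 2.08-fold, with SDs of 0.017 and 0.13. The Esrrb to Esrra ratio differed by 1.21 on the log2 scale (-4.20 ± 0.202 in wild-type, -2.98 ± 0.203 in transgenic libraries). The ratio of Esrrg to Esrrb overlapped between genotypes and differed by -0.16 (exact permutation p = 0.4). These ratios are the same under any scaling of the libraries. The summed ERR level is not: it was 34.9 ± 1.83 against 45.5 ± 4.47 CPM per kb with TMM, and 40.0 ± 2.11 against 39.6 ± 3.58 with library totals, where the genotypes overlapped.

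Ordered by level per length, wild-type muscle had Perm1 first (81.1 ± 8.74 CPM per kb), then Esrra (36.0 ± 3.40), Ppargc1a, Esrrg (7.55 ± 0.642), Pprc1, Ppargc1b and Esrrb (1.99 ± 0.432). Ppargc1a and Esrrg overlapped in range, as did Pprc1 and Ppargc1b. Transgenic muscle had Ppargc1a first (444 ± 64), then Perm1 (46.8 ± 5.10), Esrra (22.3 ± 1.51), Esrrg (9.75 ± 0.777), Pprc1 (4.99 ± 0.532), Ppargc1b (3.41 ± 0.219) and Esrrb (2.83 ± 0.234), with no overlap between neighbours. Ppargc1a thus went from the third place to the first, and the other 6 kept their order by mean.

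With TMM scaling, genes known as targets of PGC-1 and the ERRs more often fell, as Esrra and Perm1 did, than rose. The list was chosen with earlier results of these data known, so it is no independent support. Of 34 listed and tested, 19 fell, 2 rose and 13 did not pass. Among all tested genes 25.2% passed as lower and 25.5% as higher. In the list 61.8% passed, against 50.7% of all genes. The median log2 fold change was -0.31 against -0.016 for all tested genes. Slc2a4, the insulin-responsive glucose transporter GLUT4, fell most clearly, from 656 ± 45.7 to 256 ± 17.9 CPM (log2 fold change -1.36, SE 0.08, edgeR adjusted p = 1.91e-07). The mitochondrial superoxide dismutase gene Sod2 (-0.85), the isocitrate dehydrogenase subunit gene Idh3a (-0.75) and the mitofusin gene Mfn2 (-0.65) fell too. Fabp3, a fatty acid binding protein, rose by 0.66 and the mitochondrial deacetylase Sirt3 by 0.24, each sharing part of its exons with a neighbour (Zcchc17, 9.84%, and Ric8a, 7.0%). The count of 2 that rose was not stable: it was 1 without transgenic replicate 1 or without wild-type replicate 1, 0 without both and 5 without both libraries numbered 2. It was 4 with limma-voom, without robust estimation or without the filter on low counts. Under library totals, 10 of the 34 passed as lower and 15 as higher, where 8.73% of all genes passed as lower and 52.3% as higher. The list's median was then 0.085 against 0.38 for all genes. The sign of the list's median thus depended on the scaling. The list's median lay below the median gene under both, but the shared shift of all genes leaves that distance nearly unchanged by construction.

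Genes that act on the Ppargc1a promoter or on its protein went both ways. Of 24 tested, 7 rose and 6 fell, with a median of 0.074. The 54.2% that passed lies near the 50.7% of all tested genes (25.5% higher and 25.2% lower). The AMP kinase catalytic genes, whose kinase phosphorylates PGC-1alpha, split: Prkaa2 fell (435 ± 19.9 to 228 ± 4.36 CPM; -0.93, SE 0.06, edgeR adjusted p = 3.66e-07) and Prkaa1 rose (0.25, SE 0.06, adjusted p = 0.00591). Mapk14, which encodes p38alpha (-0.60), the calcineurin subunit gene Ppp3cb (-0.58) and Mef2d (-0.41), which encodes a factor that binds the Ppargc1a promoter, fell. The arginine methyltransferase gene Prmt1 (0.77), Foxo3 (0.48) and the class IIa deacetylase gene Hdac4 (0.49) rose; Hdac4 shares 22.4% of its exonic bases with Gm26720 and Mef2d 8.87% with 1700113A16Rik. Under library totals, where 52.3% of all genes passed as higher and 8.73% as lower, 16 of the 24 passed as higher and 3 as lower, the list's median was 0.47, and Mef2d was at -0.013 and did not pass.

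Docking partners also went both ways. Of 22 tested partners of PGC-1 or the ERRs, 10 fell and 6 rose, or 72.7% against the 50.7% of all genes, with a median of -0.059. The retinoid X receptor genes Rxrg (77.9 ± 4.94 to 29.1 ± 1.28 CPM; -1.42, SE 0.07, edgeR adjusted p = 6.40e-08) and Rxra (-0.88) fell, as did the coactivator gene Ncoa1 (-0.64) and Lpin1 (-0.62), whose product lipin 1 coactivates with PGC-1alpha. Hcfc1, which encodes a host cell factor that binds PGC-1beta, rose (77.6 ± 1.90 to 147 ± 7.0 CPM; 0.92, SE 0.06, edgeR adjusted p = 3.34e-07). The Mediator subunit gene Med1 (0.77), Yy1 (0.56) and Gabpa (0.56), both encoding factors of mitochondrial gene promoters, rose too; Gabpa shares 6.98% of its exonic bases with Atp5j. Under library totals 10 of the 22 passed as higher and 5 as lower, against those same shares of all genes. Ncoa1 shares 0.793% of its exonic bases with 4921501I09Rik.

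**Figure D4:**
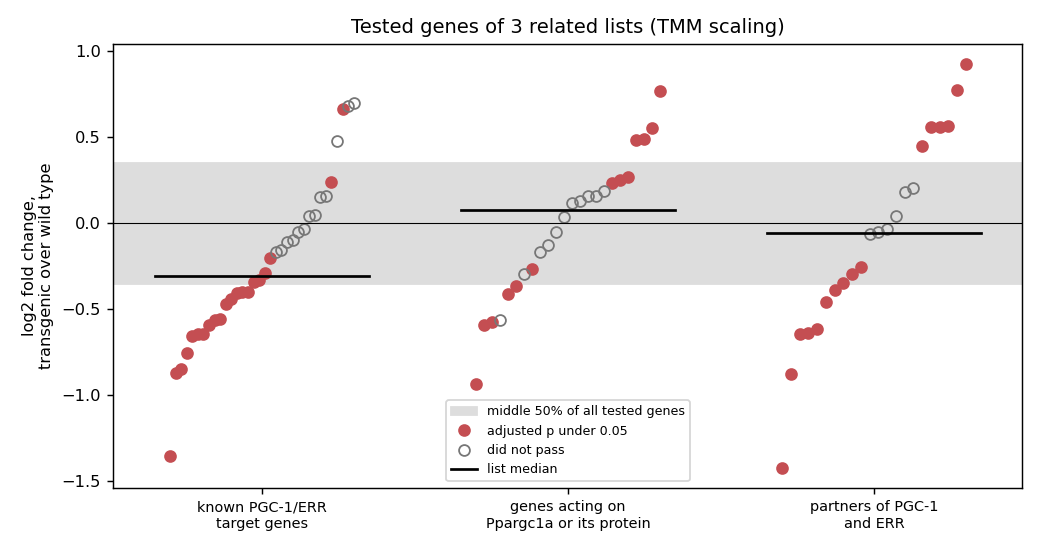
Log2 fold change (TMM scaling) of each tested gene in the 3 lists of targets, upstream genes and partners, ordered within a list; filled points passed an adjusted p of 0.05, black lines are list medians and the grey band spans the middle 50% of all tested genes (-0.36 to 0.35). The target list has the lowest of the 3 medians, at -0.31.

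Some relatives of the ERRs within the nuclear receptor superfamily were also looked at. The oestrogen receptor gene Esr1 fell from 35.2 ± 0.458 to 20.1 ± 4.53 CPM (log2 fold change -0.81, SE 0.14, edgeR adjusted p = 0.00181). With library totals alone its value was -0.41 (edgeR adjusted p = 0.0373). The glucocorticoid receptor gene Nr3c1 (-0.14) and the mineralocorticoid receptor gene Nr3c2 (0.22) did not pass, and both passed as higher with library totals alone (0.26 and 0.62). Esr2 and Pgr were under the filter on low counts.

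Across the 14252 other tested genes above 1 CPM, those nearest to each gene in profile over the 6 libraries were found by the root mean square difference of centred log2 CPM. Nearest to Esrra were L3mbtl3, a chromatin reader gene (difference 0.022), and Gm16755 (0.031). Nearest to Perm1 were Trpm4, a calcium-activated cation channel gene (0.047), and 5930430L01Rik (0.052). Esrrg was nearest to Ppcs, a coenzyme A synthesis gene (0.029), and Ypel1 (0.030), Esrrb to Gm13402 (0.056) and Srbd1 (0.057), Pprc1 to Npat, a histone gene activator (0.033), and Eif3h (0.035), and Ppargc1b to Rhbdf1 (0.023) and Plekha1 (0.028). Ppargc1a had no close neighbour: Rnf208 was at 0.37 and Fbxo2 at 0.47. Of these, Gm13402 shares 34.2% of its exonic bases with Med27 and Gm16755 21.4% with Mrpl12. Rnf208 shares 9.09% with Cysrt1 and Ypel1 9.84% with Ppil2. Likeness is a description over 6 libraries of 2 genotypes. Its measure includes the genotype difference, so neighbours' fold changes lie near those of the genes they resemble by construction, as in L3mbtl3 at -0.68.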

How the data were processed

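RNA from frozen, pulverised gastrocnemius went into standard Illumina libraries, per the labels' protocols. The submitters' processing notes name STAR 2.5.0a, the build GRCm38.p6 and DESeq2. The authors counted fragments with featureCounts 2.0.0 without strand, a fragment over several genes counting for each, per the file headers. The deposited count table holds raw counts per gene. A second table, also deposited by the authors, gives log2 fold changes and p-values of genes past a limit.

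Gene names and exons came from GENCODE M21 (GRCm38), which matched 51718 of 51911 IDs, and promoter sequences from RefSeq (GRCm38.p6); 6 of the 7 genes had a window. Genes were kept with filterByExpr, scaled by TMM and tested in R 4.3.3 with edgeR 4.0.16 (robust quasi-likelihood F test, genotype as the sole term, Benjamini-Hochberg over all 16593 tested genes, threshold 0.05). SE is the absolute log2 fold change over the square root of F. The biological coefficient of variation was 10.7%. On simulated data with few changed genes, the test recovered 51.5% of 1.5-fold and 87.9% of 2-fold changes, with 7 false calls among 166. Far more genes differed in the real libraries, so these shares may not carry over. Log2 CPM for profile likeness used a prior count of 2. No 2 libraries of a genotype were alike within counting error (chi-square statistic 10.8 to 26.1 times its degrees of freedom).

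The 7 genes and the lists were chosen with earlier results of these data known. From each list of targets, upstream genes, partners and ERR relatives, up to 4 genes per direction are named by smallest p, other members only where they did not pass; the 2 nearest profiles are named for each gene. The result of 1 listed gene is not reported here. Alternatives were DESeq2 1.42.0 (size factors and Wald test), upper-quartile factors, library totals, limma-voom (limma 3.58.1), no robust estimation, 2 other filters on low counts, removal of Ppargc1a or of genes of the mitochondrial genome, the replicate number as a block, and omission of each library in turn. Leaving out both libraries of a number was added after seeing the data.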

Additional observations from a re-analysis of the deposited data

How the results depend on the processing

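Esrra, Perm1 and Esrrg kept direction and call in all 20 other settings, and Ppargc1a in all 19 that kept its row. With library totals alone 8676 genes were higher and 1448 lower, against 4230 and 4189 with TMM, and Ppargc1b turned to 0.29; the other scalings gave Ppargc1b -0.11. Calls ended for Esrrb with the replicate block (0.51, adjusted p = 0.0520) and without both libraries numbered 1 (0.27, adjusted p = 0.0549), and for Pprc1 without both numbered 3 (0.23, adjusted p = 0.0726); the cause was not tested. Over its other settings the adjusted p of Esrrb ran from 5.91e-07 to 0.0549 and that of Pprc1 from 1.45e-05 to 0.0726. The labels do not say that replicate numbers pair animals, and same-numbered libraries correlated at 0.10, -0.088 and -0.21 in their deviations from the genotype means. Transgenic replicates 2 and 3 correlated better with another number. The replicate block gave 4165 genes higher and 4166 lower, and 5 target genes higher in place of 2, and changed no other call among the 7 genes. Leaving out 1 library gave -0.77 to -0.62 for Esrra, -0.88 to -0.71 for Perm1, 0.29 to 0.44 for Esrrg, 0.33 to 0.59 for Esrrb, 0.28 to 0.45 for Pprc1, -0.16 to -0.036 for Ppargc1b and 5.74 to 5.95 for Ppargc1a. Counts without division by length gave Ppargc1a, Ppargc1b and Pprc1 share differences of 41.3, -15.5 and -25.8 percentage points, against 47.0, -22.9 and -24.1. The 3 libraries a genotype limit what can be seen of changes near that of Ppargc1b.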

Other observations

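Nr0b2, an atypical nuclear receptor gene whose product SHP is known to repress ERRs and other receptors, was under the filter on low counts and was picked out after its values were seen. Transgenic replicates 1 to 3 held 8, 13 and 9 counts of it, and wild-type replicates 0, 2 and 0. The summed counts of 30 and 2 give a ratio of 16.3 per total count (95% exact interval 4.12 to 140, counting error only). It too divides by library totals, under which the median gene had a log2 fold change of 0.38. Among relatives of the ERRs that were too low to test, Esr2 had 3, 4 and 18 counts against 6, 2 and 1, and Pgr 3, 1 and 0 against 0 in each wild-type library.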
